A study of Mus musculus with 4 samples.

Results

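The 10 genes Eno1, Eno2, Eno3, Pgam1, Pgam2, Aldoa, Aldoc, Pkm, Ldha and Ldhb encode forms of 5 enzymes of glycolysis and lactate metabolism. They were taken by symbol from the 32285 genes of 4 spatial transcriptomes, which gave 11 rows because Aldoa is listed under 2 identifiers. The second Aldoa row held 0, 1, 1 and 1 UMIs (unique molecular identifiers, each counting 1 captured RNA molecule) at days 0, 1, 3 and 7, and both rows were summed. The sections were fresh frozen tibial muscle of Nse-Bmp4 mice on the C57BL/6 strain, aged 6 to 8 weeks, uninjured (day 0) or taken 1, 3 and 7 days after cardiotoxin injury, with 1 section per day. All groups, day 0 included, carry the transgene, in which a promoter of neuron-specific enolase (Nse, the protein of Eno2) drives Bmp4, and these animals form bone in injured muscle. Per the labels 3 muscles went into each group, but whether a section shows 1 muscle or several is not stated. With 1 section per day there was no spread between animals and no test. Every interval below is a 95% interval for counting error only.

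Vertebrates carry several genes for the same glycolytic step, and tissues differ in which one they use. Eno3 and Pgam2 encode the muscle forms of enolase and phosphoglycerate mutase, which act one after the other between phosphoglycerate and phosphoenolpyruvate. Eno1 and Pgam1 encode the general forms, and Eno2 the form of neurons. Aldolase A (Aldoa) is the muscle form and also the widespread one, and aldolase C (Aldoc) is known from brain. Pkm makes pyruvate kinase in 2 splice forms, one of adult muscle and one of proliferating cells, which counts per gene cannot tell apart. Lactate dehydrogenase A (Ldha) prevails in fast muscle and B (Ldhb) in heart and slow muscle. During development myoblasts hold the general forms and acquire the muscle forms as fibres mature, so the proportion of the 2 forms is a classic mark of muscle maturity.

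The stretches of 250 bases before the annotated start of the 4 genes of the main pairs are shown because their RNA moved in opposite directions, and because they differ in composition. They were read from RefSeq windows on GRCm38.p6, where all 10 genes had a window (17 windows in all), and are written 5′ to 3′ on the strand of the gene. Capitals in the muscle forms mark CANNTG, the E-box to which myogenic factors of the MyoD family bind. Capitals in the general forms mark ACGTG or GCGTG on either strand, the core that hypoxia-inducible factors recognise. The Eno3 window is chr11:70656926-70657175 (plus strand), the Pgam2 window chr11:5803797-5804046 (minus), the Eno1 window chr4:150236458-150236707 (plus) and the Pgam1 window chr19:41911621-41911870 (plus).
Eno3: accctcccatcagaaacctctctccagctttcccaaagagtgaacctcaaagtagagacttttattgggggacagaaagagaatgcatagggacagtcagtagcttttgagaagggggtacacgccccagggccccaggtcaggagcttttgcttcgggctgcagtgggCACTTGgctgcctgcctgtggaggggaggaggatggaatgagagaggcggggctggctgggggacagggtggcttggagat
Pgam2: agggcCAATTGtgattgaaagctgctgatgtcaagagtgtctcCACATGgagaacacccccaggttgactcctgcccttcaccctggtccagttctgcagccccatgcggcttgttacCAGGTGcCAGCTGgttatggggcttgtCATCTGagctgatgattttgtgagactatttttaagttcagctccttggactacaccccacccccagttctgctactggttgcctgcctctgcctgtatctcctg
Eno1: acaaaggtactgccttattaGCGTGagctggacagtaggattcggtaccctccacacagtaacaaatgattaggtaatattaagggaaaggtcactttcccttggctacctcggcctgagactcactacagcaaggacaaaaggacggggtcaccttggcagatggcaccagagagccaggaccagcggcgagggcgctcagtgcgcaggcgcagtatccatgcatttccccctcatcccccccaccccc
Pgam1: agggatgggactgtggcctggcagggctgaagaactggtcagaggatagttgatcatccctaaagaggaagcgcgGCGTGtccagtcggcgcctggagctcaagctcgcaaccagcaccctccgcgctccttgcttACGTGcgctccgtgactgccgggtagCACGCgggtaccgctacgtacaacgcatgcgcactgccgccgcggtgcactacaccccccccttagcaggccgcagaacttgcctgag

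The Pgam2 window held 5 matches to CANNTG and 0 to the hypoxia core, and the Eno3 window held 1 of each. The Pgam1 window held 0 matches to CANNTG and 3 to the hypoxia core, and the Eno1 window 2 and 1. A further 2 Eno1 windows, at starts farther downstream, held 0 and 2 each. CANNTG was present in 66.2% and ACGTG or GCGTG in 38.6% of all 32851 windows of this length, so single matches are common and are a description of letters only. A CACGTG would have matched both. The CpG count separated the pairs more clearly, with 1 in the Pgam2 window and 3 in the Eno3 window against 22 in the Pgam1 window and 9, 21 and 19 in the Eno1 windows, where the median of all windows was 6. The Eno3 window lies inside the gene as RefSeq annotates it (chromosome 11, 70653125 to 70662513), because its start is a downstream one.

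The sections held 2107 to 3029 spots at days 0 to 3 and 3032 at day 7, and 16777832 (day 1) to 56113066 (day 3) UMIs. Day 1 was the shallowest, with a median of 6322 UMIs per spot against 12120 to 21029 in the others. Of 4078 spot barcodes, which are fixed array positions and not cells, 1341 occurred in all 4 sections. All 18 genes of the adult myofibre list were detected in every section, as the tissue label would have it. Besides genes such as Acta1 and Ttn, this list holds mostly fast-fibre genes (Myh4, Myh1, Tnnt3, Tnni2, Atp2a1 and others). Slow-fibre genes form a list of their own, so a low share of the first list need not mean few fibres. The adult myofibre list took 28.3%, 15.3%, 9.29% and 16.4% of UMIs at days 0, 1, 3 and 7. In the same sections the monocyte/macrophage list (11 genes, none at 0) had 397.5, 1540, 7826 and 2028 CPM (UMIs scaled to 1000000 UMIs of the section). A spot covers many cells, so fewer fibres and less RNA per fibre cannot be told apart in any value below. Whether the RNA of 2 genes is captured equally well was not tested, so a ratio of 2 genes is read only for how it differs between sections or spots.

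Muscle enolase RNA was lower in all 3 injured sections than in the uninjured one. Eno3 had 6771, 2800, 2461 and 4431 CPM at days 0, 1, 3 and 7. Its level at day 3 was 2.75-fold below day 0 (log2 ratio -1.46), and day 7 stood between day 0 and day 1. Eno1, the general enolase, had 40.05, 73.8, 184 and 46.9 CPM in the same order. It was therefore 4.61-fold above day 0 at day 3 (interval 4.38 to 4.85) and back to 1.17-fold (1.10 to 1.25) at day 7. The 4 levels of Eno1 did not overlap in their counting intervals, and their order was day 0, day 7, day 1 and day 3.

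Phosphoglycerate mutase showed the same opposition, with a deeper low at day 1. Pgam2 had 4458 CPM in the uninjured section and 1208, 1370 and 2661 in the injured ones. Its log2 ratios to day 0 were -1.88, -1.70 and -0.74, so that day 1 was the lowest, whereas Eno3 was lowest at day 3. Pgam1, the general form, had 34.3 CPM in the uninjured section and 93.1, 224 and 83.1 in the injured ones. It was 2.71-fold, 6.54-fold and 2.42-fold above day 0. Unlike Eno1, it was still 2.42-fold above day 0 at day 7 (interval 2.28 to 2.57). In the 3 injured sections Pgam1 stood farther above day 0 than Eno1 did, by non-overlapping intervals each time.

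**Figure D1:**
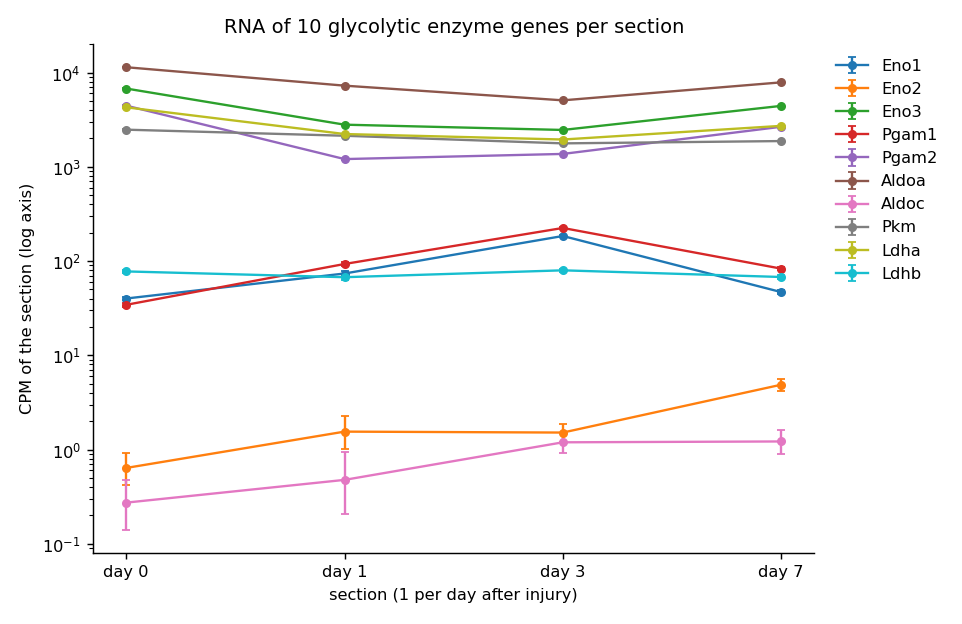
CPM of each of the 10 genes (log axis) in the sections of days 0, 1, 3 and 7, with 1 section per day; bars are exact Poisson intervals and are smaller than the points for abundant genes. Eno3 and Pgam2 dip at days 1 and 3 while Eno1 and Pgam1 peak at day 3, at 184 and 224 CPM, and Eno2 is highest at day 7, at 4.88 CPM.

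Within a section the ratio of 2 genes does not depend on how sections are scaled to each other. The ratio of Eno3 to Eno1 UMIs was 169 in the uninjured section (interval 161 to 177) and 37.9, 13.3 and 94.6 in those of days 1, 3 and 7. The ratio of Pgam2 to Pgam1 was 129.9, against 12.97, 6.10 and 32.0 after injury. Both ratios were thus lowest at day 3, by 12.7-fold for enolase and 21.3-fold for the mutase, and neither had returned to its day 0 value by day 7. In every injured section the mutase ratio stood farther below day 0 than the enolase ratio, with log2 changes of -3.32, -4.41 and -2.02 against -2.16, -3.66 and -0.84. When each spot was given the same weight in place of each UMI, the mutase ratio was lowest at day 1 (log2 change -4.02) and not at day 3 (-3.83). Counted in UMIs, Eno3 made up 93.0% of the 3 enolases at day 3 (99.4% at day 0) and Pgam2 85.9% of both mutases (99.2% at day 0).

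Among the other steps Aldoa and Ldha were lower after injury, Pkm and Ldhb varied less, and the sparse Aldoc was higher. Aldoa, which gave the most UMIs of the 10 genes, had 11394, 7263, 5073 and 7873 CPM at days 0, 1, 3 and 7, and Ldha 4279, 2228, 1948 and 2720. Both were lowest at day 3, at log2 ratios of -1.17 and -1.14. Pkm varied less, with 2478, 2136, 1773 and 1876 CPM. Ldhb varied little by the section total, with 77.6, 67.4, 79.8 and 67.8 CPM. Its interval against day 0 included 1 at day 3 but not at day 1 (0.81 to 0.93) or day 7 (0.83 to 0.92). The Ldha to Ldhb ratio was 55.1, 33.1, 24.4 and 40.2, so its lower values came from Ldha. Aldoc was sparse, with 12, 8, 67 and 51 UMIs per section, or 0.274, 0.477, 1.19 and 1.22 CPM. Its level at days 3 and 7 was 4.37-fold (interval 2.34 to 8.87) and 4.46-fold (2.34 to 9.18) above day 0. The Aldoa to Aldoc ratio had log2 changes of -1.45 (interval -2.74 to -0.16), -3.29 (-4.18 to -2.41) and -2.69 (-3.60 to -1.78) on the injured days, so that at day 7 its point estimate was below those of enolase and the mutase, with an interval that took in the mutase value.

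**Figure D2:**
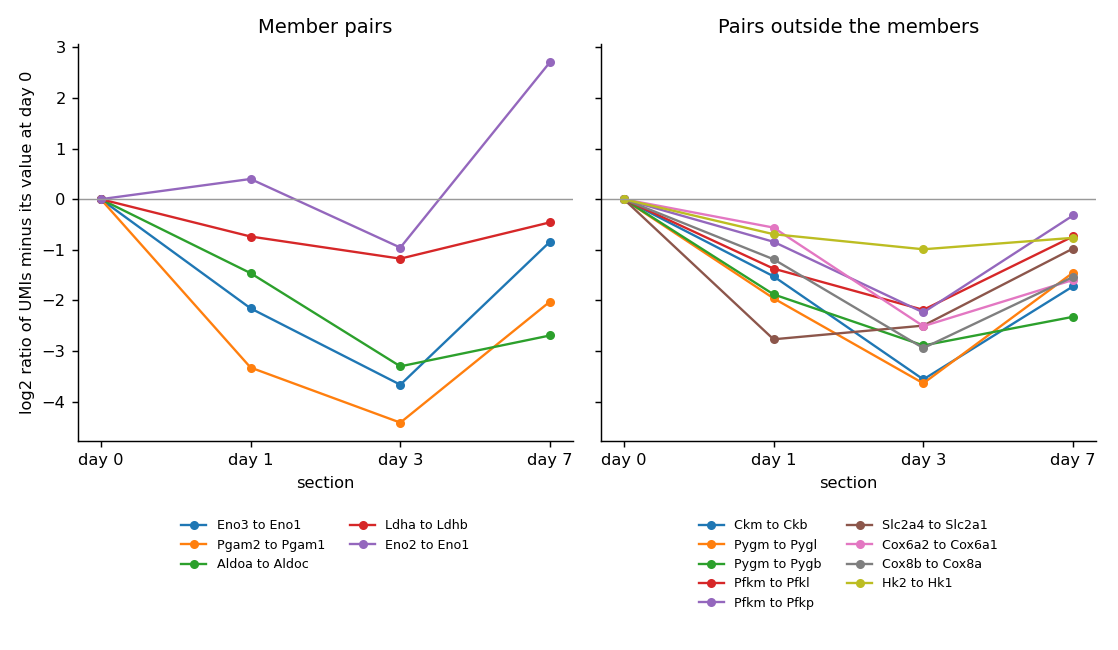
Log2 ratio of the UMIs of 2 genes in each section minus its value at day 0, for the 5 pairs within the 10 genes (left) and 9 muscle-to-general or related pairs outside them (right); each point is 1 section. The Eno3 to Eno1 and Pgam2 to Pgam1 lines are lowest at day 3, at -3.66 and -4.41, and the pairs on the right lie below 0 on every injured day as well.

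A gene was called when its CPM differed at least 2-fold from day 0 and its counting interval excluded 1, over 17250 genes with at least 10 UMIs in the 4 sections, which all 10 members passed. At day 1, Eno2 and Pgam1 were called higher (14.8% of all genes were) and Eno3 and Pgam2 lower (8.45% of all genes). At day 3, Eno1, Eno2, Pgam1 and Aldoc were called higher (29.0% of all genes) and Eno3, Pgam2, Aldoa and Ldha lower (7.00% of all genes). At day 7, Eno2, Pgam1 and Aldoc were called higher (28.3% of all genes) and 0 members lower (1.55% of all genes). The higher calls of members at days 3 and 7 are therefore close to the share over all genes. The lower calls at day 3, 4 of 10, are above the 7.00% background. The median log2 ratio of the members was -0.21, -0.22 and -0.30, against 0.27, 0.55 and 0.64 over all genes tested. TMM factors, which take most genes as unchanged, moved every log2 ratio by -0.21, -0.55 and -0.61 and turned much of the split of calls over all genes. They gave 1942 higher and 2000 lower at day 1 (2555 and 1458 by the section total), 2895 and 2520 at day 3 (5003 and 1208) and 2119 and 933 at day 7 (4885 and 267). With this scaling Ldha at day 1 (-1.15) and Pkm at day 3 (-1.03) also passed 2-fold lower, and Eno2 at day 3 (0.70) and Pgam1 at day 7 (0.67) no longer passed 2-fold higher. At day 7 the log2 ratios of Eno3 (-1.22), Pgam2 (-1.35), Aldoa (-1.14), Ldha (-1.26) and Pkm (-1.01) all passed 2-fold lower, where 0 members did by the section total. Under TMM factors Eno1 stood below day 0 at day 7 (log2 ratio -0.38 in place of 0.23) and Ldhb below it at day 3 (-0.51 in place of 0.04). Ldhb was then below day 0 at days 1 and 7 as well (-0.41 and -0.80).

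Set against the RNA of the adult myofibre list, the muscle forms parted from each other at day 1. This scaling, UMIs per 1000 UMIs of the adult myofibre list, was chosen after the data had been seen. Pgam2 had 15.7, 7.89, 14.7 and 16.2 at days 0, 1, 3 and 7. Its day 1 value was 0.502 of day 0 (interval 0.494 to 0.509), and the other days lay between 0.937 and 1.03. Eno3 had 23.9, 18.3, 26.5 and 27.0, a smaller dip at day 1 to 0.766 of day 0. Aldoa and Pkm were above day 0 on this scale on every injured day, at 1.18, 1.36 and 1.19 for Aldoa and 1.60, 2.18 and 1.31 for Pkm. Ldha was at 0.964, 1.39 and 1.10. The UMIs of the members come from all cells of a section, so these values are not levels per fibre. At day 3, spots under 2% myofibre UMIs still had 1208 CPM of Pkm, 1156 of Aldoa and 1003 of Ldha. At day 3, where Eno3, Aldoa and Ldha were lowest in CPM, none of these 3 genes was below day 0 on this scale, whereas Pgam2 at day 1 was.

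Across the spots of a section both main ratios followed the share of UMIs in the adult myofibre list. At day 3, spots with under 2% of their UMIs in the adult myofibre list (475 spots) had an Eno3 to Eno1 ratio of 1.47 and a Pgam2 to Pgam1 ratio of 0.328. The ratios were 3.76 and 1.48 at 2 to 5% myofibre UMIs, 11.8 and 6.20 at 5 to 10%, 44.0 and 20.7 at 10 to 20%, and 161 and 56.1 at 20 to 30%. Both ratios thus were higher from bin to bin within this one section. In the under 2% spots Pgam1 gave more UMIs than Pgam2, at 437 against 143 CPM, and macrophage list RNA was at 15509 CPM against 1794 in the 20 to 30% spots. At day 1 the same 2 ratios ran from 1.00 and 0.200 (42 spots) to 82.1 and 50.5, and at day 7 from 3.59 and 0.724 (26 spots) to 165 and 101 at 20 to 30%. Slow myofibre list RNA was itself uneven over these bins. In the day 1 section it was at 6039 CPM at 5 to 10% and 969 at 20 to 30%. In the day 0 section it was at 3128 CPM at 10 to 20% and 156 at 30% and over. The bins therefore do not separate fibre type from fibre amount.

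Spots with a like fibre share could be set side by side across days. At 20 to 30% myofibre UMIs (1166, 562, 591 and 1097 spots), the Eno3 to Eno1 ratio was 161, 82.1, 161 and 165 at days 0, 1, 3 and 7. Days 3 and 7 differed from day 0 by log2 changes of 0.00 (interval -0.22 to 0.21) and 0.03 (-0.13 to 0.19), and day 1 by -0.97 (-1.18 to -0.77). The Pgam2 to Pgam1 ratio in these spots was 111, 50.5, 56.1 and 101. Here day 3 remained below day 0, by -0.98 (-1.16 to -0.80), and day 7 was within counting error of it (-0.14, interval -0.30 to 0.02). At day 1 in the same spots Pgam2 was at 2063 CPM against 4184 at day 0, and Eno3 at 4345 against 6270, while Aldoa was at 10817 against 10647. At day 3 Pgam1 was at 55.9 CPM against 37.7 at day 0 and Eno1 at 35.8 against 38.9. At 10 to 20% the 2 ratios were both lower at days 1 and 3 than at day 0, where only 73 spots fell in the bin (39.5 and 44.0 against 111 for enolase, 12.9 and 20.7 against 41.7 for the mutase). Day 7 was within counting error of day 0 there (-0.27, interval -0.62 to 0.08, and -0.06, interval -0.33 to 0.21). The mean share in this bin was 17.9% at day 0 and 14.8%, 14.9% and 16.4% at days 1, 3 and 7, so these spots were not matched exactly. The mean share within the 20 to 30% bin was 26.0% at day 0 and 22.8 to 23.4% in the injured sections, so the match was not exact. With the 20% of spots of each section that were highest in fibre share in its place, the changes were -1.30 at day 1 and -0.36 at day 3 for enolase and -2.12, -2.00 and -0.87 for the mutase on the 3 injured days. Their mean myofibre shares were 34.2%, 23.0%, 23.3% and 25.2%.

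**Figure D3:**
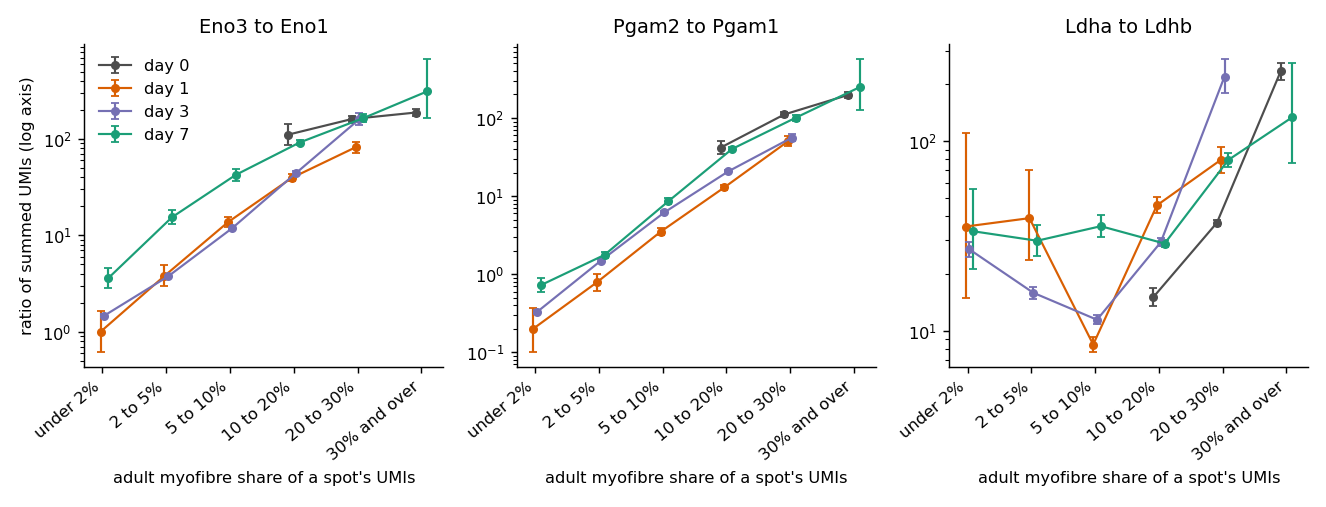
Ratio of summed UMIs (log axis) of Eno3 to Eno1, Pgam2 to Pgam1 and Ldha to Ldhb in spots grouped by the share of their UMIs in the adult myofibre list, 1 line per section; bars are Clopper-Pearson intervals and bins under 20 spots are left out. The first 2 ratios climb with the fibre share in every section, and at 20 to 30% the enolase ratio is 161 at days 0 and 3 but 82.1 at day 1.

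The tenth of spots richest in a marker list was then compared with the other spots of its section. At day 3 the macrophage-rich spots (303 spots) had 326 CPM of Eno1 against 158 elsewhere and 394 of Pgam1 against 193, each about 2-fold higher (2.06 and 2.04). Eno3 had 587 CPM there against 2808 and Pgam2 189 against 1590. The Pgam2 to Pgam1 ratio was accordingly 0.480 in these spots and 8.23 elsewhere. The macrophage-rich spots of day 1 had Eno1 2.66-fold and Pgam1 3.87-fold above the rest, and ratios of 6.12 and 1.29 against 41.9 and 15.1 elsewhere. These spots also held less fibre RNA, with means of 1.57% and 6.56% of UMIs in the myofibre list against 13.1% and 14.7% elsewhere. The part of fibre share in these ratios was not tested.

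At day 7 both general forms were highest in the few spots under 2% myofibre UMIs (26 spots, with 88 UMIs of Eno1). Eno1 had 129.5 CPM there, 57.8, 50.6 and 48.8 at 2 to 5%, 5 to 10% and 10 to 20%, and 36.6 at 20 to 30%. Pgam1 had 335.6, 278, 139, 65.9 and 36.9 CPM in the same order. The 2 forms differed between marker-rich spots. Spots rich in the chondrogenic list (Col2a1, Acan, Sox9 and other cartilage genes) had 248 CPM of Pgam1 against 64.6 elsewhere, or 3.85-fold (interval 3.58 to 4.14), while Eno1 had 47.5 against 46.8, a log2 ratio of 0.02 with an interval of 0.872 to 1.17 in fold. Spots rich in the fibroblast list, of which Col1a1 held 67.3% at day 7, gave 4.13-fold for Pgam1 and 1.21-fold for Eno1. In spots rich in the regenerating muscle list (developmental myosins, myogenic factors, the fusion genes Mymk and Mymx and others) the order was turned, with 90.1 CPM of Eno1 against 37.8 elsewhere (2.38-fold) and 66.4 of Pgam1 against 86.6 (0.767-fold). Actc1 held 61.1% of the UMIs of that list at day 7, and without it, an alternative added after the data were seen, the values were 2.35-fold for Eno1 and 0.971-fold for Pgam1. Eno3 in these spots was 1.22-fold above the rest with the full list and 0.995-fold without Actc1. At day 3, when the list had more even shares, regenerating-rich spots had 300.2 CPM of Eno1 against 163 elsewhere and 293 of Pgam1 against 212. By the list without Actc1 these spots of day 3 were poor in fibre RNA, with 4.24% myofibre UMIs against 12.8% elsewhere. Eno3 was then at 1310 CPM against 2678. The part of fibre share in these values was not tested. Macrophage-rich spots of day 7 had Eno1 1.99-fold and Pgam1 1.49-fold above the rest.

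**Figure D4:**
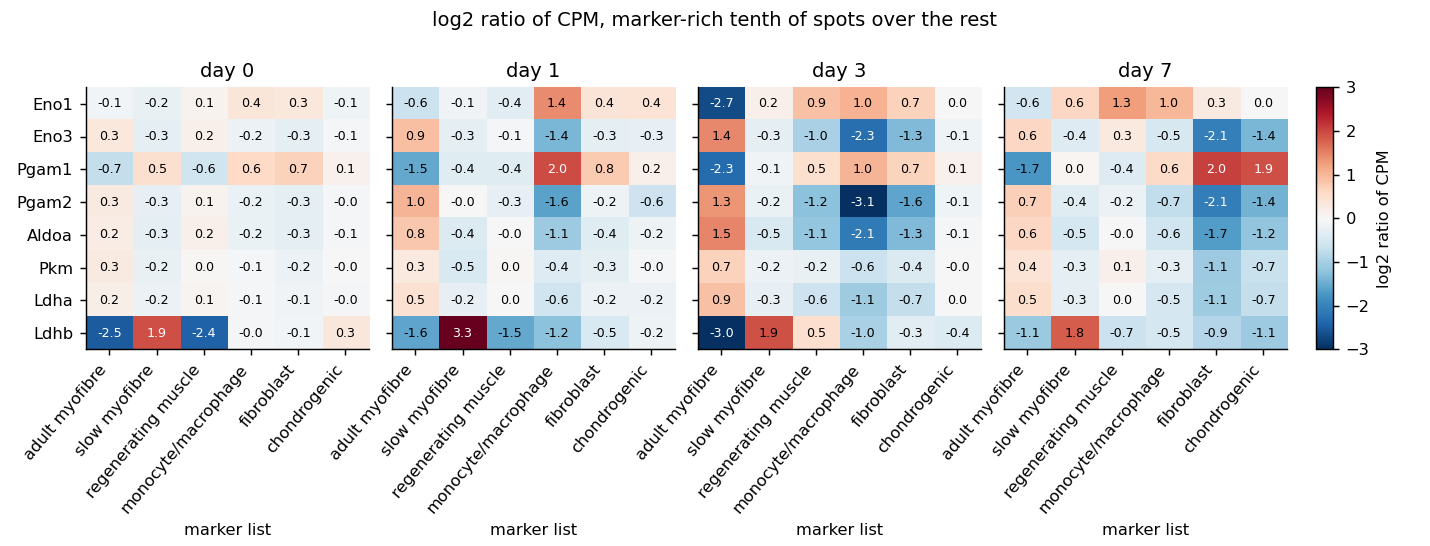
Log2 ratio of CPM in the tenth of spots richest in a marker list over the other spots of the same section, for 8 genes (rows) and 6 lists (columns) in each section; Eno2 and Aldoc are left out for their low counts, and at day 0 the regenerating list is nearly all Actc1. Pgam1 stands at 1.95 and Eno1 at 0.02 in chondrogenic-rich spots of day 7, and Ldhb is high in slow-myofibre-rich spots of all 4 sections.

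Correlations across spots, thinned to 2000 UMIs each, showed the muscle forms varying together. At day 3 Spearman's rho was 0.69 between Eno3 and Pgam2 over 3020 spots (9 shallower spots left out), 0.84 between Eno3 and the adult myofibre list and -0.71 between Eno3 and the macrophage list. It was 0.15 between Eno1 and Pgam1, which have few UMIs per spot so that a weak value is no finding, and -0.34 between Eno3 and Pgam1. At day 0 the rho of Eno3 and Pgam2 was 0.19 over 2090 spots, at day 1 0.51 over 2154 and at day 7 0.47 over 2948. These spots share a section and its spread in fibre content, and rho is given as a description. At the same depth a UMI of Eno1 was found in 7.18% of spots at day 0 and 22.5% at day 3, and a UMI of Pgam1 in 6.60% and 28.4%.

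Ldhb, which varied little in CPM of the section totals, was uneven within each section. In the tenth of spots richest in the slow myofibre list (slow myosin Myh7, slow troponins, Atp2a2, Tpm3 and others) it had 225, 313, 217 and 185 CPM at days 0, 1, 3 and 7, against 59.0, 32.4, 58.1 and 52.5 elsewhere. These are differences of 3.82-fold, 9.65-fold, 3.73-fold and 3.53-fold. At day 3 Tpm3 led the list with 19.5% of its UMIs. The list then had 756 CPM in spots under 2% myofibre UMIs against 209 at 20 to 30%. Slow-rich spots are thus not shown to hold slow fibres alone. The Ldha to Ldhb ratio in slow-rich spots was 16.98, 6.13, 7.71 and 12.2, against 73.5, 70.1, 34.3 and 53.0 elsewhere. Eno3 was lower in the same spots at all 4 days, by log2 ratios of -0.30, -0.28, -0.27 and -0.40. In the spots richest in the adult myofibre list, which is mostly of fast-fibre genes, Ldhb was at 15.0 CPM against 84.5 elsewhere at day 0. At day 3 it was at 10.3 against 83.6.

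The direction of the Ldha to Ldhb ratio against day 0 depended on which spots were taken. Section-wide it was below day 0 on every injured day, but at 20 to 30% myofibre UMIs it was 37.0, 79.5, 219 and 79.5 at days 0, 1, 3 and 7, and at 10 to 20% it was 15.0, 45.8, 29.3 and 28.8. In the 20% of spots highest in fibre share it was 276, 79.9, 215 and 94.3, below day 0 on every injured day as in the whole sections (with overlapping intervals at day 3, 234.5 to 327 and 176 to 266), and at 30% and over it was 233 at day 0 and 133 at day 7. The 219 at day 3 rests on 91 Ldhb UMIs. Slow myofibre list RNA in the 20 to 30% spots was at 944, 969, 209 and 482 CPM at days 0, 1, 3 and 7. At day 0, Ldhb was at 111 CPM in these spots and at 19.9 in spots with 30% and over, where slow myofibre RNA was at 156 CPM. The part of slow fibres in the ratio was not tested.

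Eno2, the gene whose promoter (from rat) drives the transgene, had few UMIs, with 28, 26, 85 and 204 at days 0, 1, 3 and 7. Its level was 0.638, 1.55, 1.51 and 4.88 CPM, so day 7 was 7.64-fold above day 0 (interval 5.13 to 11.8), and the intervals of days 1 and 3 overlapped. Bmp4 had 9.48, 2.68, 4.99 and 9.49 CPM. The 2 genes thus ran in different orders, and Bmp4 was lowest at day 1. Whether RNA of the transgene is counted under Bmp4 was not tested. At day 7, 169 of 3032 spots had a UMI of Eno2 and 319 of Bmp4, and 29 had both, where the product of the shares gives 17.8. The spots with both numbered 3, 0 and 7 in the sections of days 0, 1 and 3, against 4.13, 0.409 and 6.66 by the product. Depth per spot was not held fixed in these counts.

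At day 7 Eno2 was higher in spots under 10% myofibre UMIs. It had 13.3 CPM in spots under 2% myofibre UMIs, 8.83 at 2 to 5%, 12 at 5 to 10%, 4.54 at 10 to 20% and 1.84 at 20 to 30%, from 9, 26, 51, 93 and 24 UMIs. Spots rich in fibroblast RNA had 10.16 CPM against 4.204 elsewhere (2.42-fold, interval 1.71 to 3.36), and endothelial-rich spots 9.93 against 4.35. Neuron-rich spots had 8.40 against 4.45, but the neuron list had only 13.8 CPM in this section, 1 of its 8 genes was at 0, and Stmn2 held 59.45% of it. Aldoc, the other form known from brain, had 5.46 CPM in chondrogenic-rich spots of day 7 against 0.744 elsewhere, from 23 and 28 UMIs (7.33-fold, interval 4.04 to 13.2), and 4.02 against 0.862 in fibroblast-rich spots. Chondrogenic-rich and fibroblast-rich spots were both poor in fibre RNA, with means of 6.75% and 5.10% myofibre UMIs.

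The rest of glycolysis was read from lists of 38 genes for glucose transport, the other steps, their regulation, glycogen breakdown and lactate transport, of which 34 were tested. At day 1, 5 of them were called higher and 9 lower, at day 3 10 and 10, and at day 7 9 and 2, with median log2 ratios of -0.08, -0.31 and 0.18. Over all genes the shares called higher were 14.8%, 29.0% and 28.3% and those called lower 8.45%, 7.00% and 1.55%, so the higher calls of the list were near the share over all genes and the lower calls above it. Muscle phosphorylase Pygm (-1.28, -1.78 and -0.25) and the lactate exporter Slc16a3 (-1.42, -1.23 and -0.62) were called lower at days 1 and 3. Hexokinase Hk3 was called higher on all 3 days (2.97, 4.32 and 2.01), the glucose transporter Slc2a1 at days 1 and 3 (1.95, 1.75 and 0.88) and liver phosphorylase Pygl at days 3 and 7 (0.67, 1.86 and 1.196). Upper-glycolysis Pfkm, the muscle phosphofructokinase, was by the section total below day 0 at days 1 and 3 (-0.55 and -0.61) and above it at day 7 (0.42). TMM factors move the log2 ratios of day 7 by -0.61, which puts both Pfkm and the median of these lists below day 0 at day 7. Gapdh, often taken as a constant reference, was at -0.13, -0.66 and -1.13 and called lower at day 7. Of 12 symbols listed as hypoxia-responsive 11 were in the files, and 2, 4 and 3 were called higher and 1, 1 and 0 lower at days 1, 3 and 7, which is close to the same shares over all genes. Vegfa was among the lower ones at days 1 and 3 (-2.04 and -1.08), and Mif was called higher at days 3 and 7 (1.71 and 1.32).

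Ratios of other muscle to general forms were below day 0 too. In 9 pairs outside the members, among them creatine kinase Ckm to Ckb, Pygm to Pygl, Pfkm to Pfkl and the respiratory subunits Cox6a2 to Cox6a1 and Cox8b to Cox8a, the ratio was below day 0 at each injured day. Pygm to Pygl came closest to enolase at day 3, with a ratio of 71.9 against 893 at day 0 (log2 change -3.64), followed by Ckm to Ckb with 75.6 against 890.2 (-3.56). The smallest change at day 3 was that of Hk2 to Hk1, at -0.99, and of these pairs Slc2a4 to Slc2a1 had its lowest ratio at day 1 (5.59 against 38.0 at day 0). At day 1 the mutase change of -3.32 was larger than that of any of the 9 pairs, whose values ran from -2.76 to -0.56.

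Among 2420 genes with a mean of at least 50 CPM, the genes whose 3 log2 ratios to day 0 lay nearest to those of Eno3 were Col4a1, a basement membrane collagen, Ak1, the adenylate kinase of muscle, Slc25a12, Tpm2 (a tropomyosin) and Phkg1 (muscle phosphorylase kinase). The distances ran from 0.172 to 0.214. Nearest to Eno1 were Hsp90aa1, Slc25a5, Snrpf, Tbca and Hspe1 (0.256 to 0.540), which include chaperones and a splicing protein. Nearest to Pgam1 were Ctsb, Rhog, Mrc1, Vsir and Tspo (0.249 to 0.292), of which Mrc1 is a macrophage receptor. Nearest to Ldhb were Vdac2, Fkbp4, Vamp5, Atp5mpl and Saraf (0.107 to 0.178). Eno2 was compared with 8097 genes of at least 10 CPM and had no near neighbour, with Rasd2, Lbh, Vasn, Xylt1 and Lfng at 0.699 to 0.814. The likeness is over 4 sections only.

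Near copies of the members share sequence with them, so part of their UMIs is uncertain. Eno1b had 184, 30, 539 and 425 UMIs, or 9.48%, 2.37%, 4.95% and 17.8% of the sum of Eno1b and Eno1. Aldoart1 had 1.29%, 0.166%, 0.349% and 1.49% of its sum with Aldoa. Both shares stood in the same order of sections, day 1, day 3, day 0 and day 7. Adding the copies to their members gave log2 changes of the Eno3 to Eno1 ratio of -2.05 at day 1 and -0.98 at day 7.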

How the data were processed

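RNA of 4 Visium sections of mouse tibial muscle was measured. The deposited values are raw UMI counts per gene and spot, which the authors produced with the vendor's pipeline (spaceranger 1.2.0 per the file headers, while the labels and the study's methods each give another version). The submitters' processing notes name the build mm10, to which the GRCm38.p6 tables of RefSeq used here correspond. The labels mention down-sampling of reads, but totals differed between sections. All spots were used. Counts were summed per section or group of spots and scaled to the total (CPM). Intervals are exact Poisson, Clopper-Pearson or conditional binomial at 95%. A gene under 3 UMIs in a section was entered at 3. PCR and capture errors are not covered, and no doublet caller was run because a spot holds several cells. The members and lists were chosen with earlier results of these data known. The named genes were the members, genes of the pathway lists and pairs, Bmp4, and the 5 genes nearest to each of Eno3, Eno1, Eno2, Pgam1 and Ldhb by Euclidean distance over the 3 log2 ratios to day 0. A marker list was used in a section where it had at least 20 UMIs in the rich spots. Thinning to 2000 UMIs used 20 draws. Alternatives were TMM factors (edgeR 4.0.16), DESeq2 1.42.0 size factors, a total that left out myofibre, haemoglobin and mitochondrial genes, other filters, bins, spot sets and thinned depths. The code for ratios and for ratio and share intervals was tested on simulated data, while the call rule and the Poisson intervals were not. R 4.3.3 and Python 3.11.15 were used, the latter with SciPy 1.17.1, pandas 2.3.3, NumPy 2.4.6 and matplotlib 3.10.9. Spot positions, tissue images and single-cell data were not used here.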

Additional observations from a re-analysis of the deposited data

Results flagged for a closer look

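Eno1b, the near copy of Eno1, had log2 ratios to day 0 of -1.23, 1.196 and 1.28 on days 1, 3 and 7. It stood out because the day 1 section moved one way and the later sections the other, while Eno1 itself was above day 0 on all 3 days (0.88, 2.20 and 0.23). The difference between days was not tested, since each day is 1 section, and the day 1 value rests on 30 UMIs.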

How the results depend on the processing

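No paired analysis was possible because each day is 1 section, so no test was made and no section could be left out. Counts of all genes called depended on scaling and on the filter. Genes called higher and lower at day 3 numbered 2895 and 2520 with TMM factors, 2858 and 2568 with size factors and 3187 and 2197 with a total that left out myofibre, haemoglobin and mitochondrial genes. At day 7 they numbered 2119 and 933, 2057 and 996, and 3171 and 482, in the same order. With genes of at least 10 CPM on the mean, they numbered 1235 and 644 at day 1, 2300 and 430 at day 3 and 1722 and 77 at day 7. Member levels moved beyond their counting intervals in 25, 25 and 24 of 30 values under these 3 scalings. Isoform ratios do not depend on scaling. With every spot weighted alike, log2 changes at days 1, 3 and 7 were -2.54, -3.03 and -0.42 for Eno3 to Eno1 and -4.02, -3.83 and -1.76 for Pgam2 to Pgam1, and those of Ldha to Ldhb were -0.52, -0.83 and -0.55. With near copies added, Eno3 to Eno1 gave -2.05 at day 1 and -0.98 at day 7. In the 20% of spots highest in fibre share, Eno3 to Eno1 gave -1.30 at day 1 and -0.36 at day 3, and Pgam2 to Pgam1 -2.12, -2.00 and -0.87. Among the members the direction turned for Eno1 at day 7 (-0.38 with TMM factors, -0.41 with size factors, -0.08 with the reduced total) and for Ldhb at day 3 (-0.51, -0.52 and -0.41). It also turned for Ldhb in regenerating-rich spots of day 0, from -2.42 to 0.36 without Actc1, which held 97.6% of that list there. The cause was not tested. Leaving out spots under 1000 UMIs kept all section values and ratios within their counting intervals. With 5% in place of 10% of spots taken as rich, 97 of 240 values moved beyond them, and thinning to 1000 or 4000 UMIs moved 36 and 39 of 60 values of rho beyond the range of the 20 draws, none of them to the other sign from 0.2 or more in size. The shallow day 1 section and the counts of Eno2 and Aldoc set the widest intervals.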

Other observations

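Spots rich in the neutrophil list showed the same pattern as macrophage-rich ones. At day 1 they had 133 CPM of Eno1 against 70.2 elsewhere and 204 of Pgam1 against 86.5, with Pgam2 at 558 against 1246. At day 3 they had 373 CPM of Pgam1 against 206. These spots had 8.98% and 5.67% myofibre UMIs, against 14.4% and 12.7% elsewhere. The list was sparse at day 3, at 56.8 CPM, of which Csf3r held 36.1%. Ly6g had 1 UMI at day 1 and 0 at day 3. Overlap with the macrophage-rich spots was not tested, so a separate neutrophil pattern is not shown.

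In the uninjured section the general forms were already uneven. Pgam1 was higher in endothelial-rich spots (53.4 CPM against 32.3), fibroblast-rich spots (52.7 against 32.5) and adipocyte-rich spots (51.5 against 32.7), and Eno1 had 49.4 against 39.1, 48.9 against 39.2 and 50.5 against 39.1 in the same spots. Fabp4 held 81.9% of the adipocyte list in this section, and the overlap of the 3 sets of spots was not tested. Ldhb had 131 CPM against 71.9 in endothelial-rich spots. At day 7 Pgam1 was also high in osteogenic-rich spots (246 CPM against 67.3) and tendon-rich spots (233 against 65.6), where Eno1 had 55.2 against 46.1 and 47.6 against 46.8. Comp held 50.1% of the tendon list at day 7, with Tnmd and Scx at 27.6 and 24.7 CPM, so these spots need not be tendon. Pgam1 was at 336, 278 and 139 CPM in day 7 spots under 2%, 2 to 5% and 5 to 10% myofibre UMIs. The part of fibre share was not tested.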
